A study of Homo sapiens with 8 samples.

Results

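The cell cycle was followed through 49 genes, 24 that act in S phase and 25 that act in mitosis, in A-498, a long established cell line from a human kidney carcinoma. The genes were taken by name from a list chosen with earlier results of these data known, by a rule that uses no measured value, and all 49 were found among the 28395 genes of the table and passed the filter on low values, which left 14040 genes for testing. The study asked how loss of ANXA4, the gene of the calcium-dependent membrane-binding protein annexin A4, alters the RNA of these cells. Cells of 4 CRISPR-Cas9 lines were seeded in equal numbers, grown for 24 hours below confluence, and their polyadenylated RNA was sequenced in 2 replicates a line. The wild-type controls were 2 lines with a different non-targeting guide RNA each, and the other 2 lines carried guide 1 or guide 2 against ANXA4 and were labelled knockout (KO). With 1 line a guide, guide and line cannot be told apart, and nothing in the labels says that replicates were separate cultures, so p-values measure the spread between these libraries only.

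ANXA4 itself had normalized read counts (reads divided by a size factor of the library) of 2821, 3614, 3858 and 6773 in the control libraries. The line labelled KO guide 1 had 235.6 and 234.4, and the line labelled KO guide 2 had 3433 and 4142, within the control range. A guide can disrupt a protein without lowering its RNA, and every direction below is given for the line as labelled. Libraries held 15784890 to 22631588 reads, of which 4.67% to 13.8% were mitochondrial, the highest share being in replicate 2 of the KO guide 2 line. The kidney factor PAX8 was present at 2987 to 4476 and the epithelial keratin KRT8 was abundant in every library, while CD3E, CDH5 and MYH11, defining markers of T cells, endothelium and smooth muscle, were at 0 in all 8. These were 3 of the 11 markers of other cell types reported. PTPRC, LYZ, PECAM1, VWF, DCN and ALB stayed at or below 9.19 in every library, PDGFRB was 1.04 to 19.8, and ACTA2, an actin of smooth muscle and myofibroblasts, was 94.6 to 293. The 11 markers summed to 116 to 143 in control and 132 to 307 in KO-labelled libraries, and without ACTA2 to 8.60 to 32.2 and 4.70 to 15.7. ACTA2 was called higher in the KO guide 2 line (1.09, limma adjusted p = 0.0185), as were KRT8 (0.64) and KRT18 (0.66), on the log2 scale; their part in the results was not tested. Values of CA9, a hypoxia target of many clear cell kidney cancers, were only 2.08 to 24.8.

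A dividing cell copies its DNA in S phase and separates the copies in mitosis. E2F transcription factors, released from the retinoblastoma protein by cyclin E and CDK2, switch on the S-phase genes. A later wave of mitotic genes is held off by the DREAM repressor complex and driven by MYBL2 and FOXM1, and its products, such as cyclin B, the Aurora kinases and the kinetochore proteins, peak in G2 and M. In bulk RNA, a smaller number of cells in a phase and less RNA per cell in that phase cannot be told apart.

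As a group, mitotic genes had lower levels in both KO-labelled lines than in both control lines, although no single gene passed the test between arms, and the levels of S-phase genes overlapped. For each gene the log2 value of a library was set against the mean of its 8 libraries, and the median of these deviations was taken over a gene group. For the mitotic genes it was 0.09 and 0.15 in control line 1, 0.18 and 0.38 in control line 2, -0.16 and -0.10 in the KO guide 1 line, and -0.32 and -0.14 in the KO guide 2 line. All 4 KO-labelled libraries thus lay below all 4 control libraries. Of the 25 mitotic genes, 17 to 22 were below their own mean in a KO-labelled library, against 1 to 8 in a control library. Mitotic genes took 0.405% to 0.462% of the reads of a control library and 0.305% to 0.352% of those of a KO-labelled one. With mitochondrial reads left out, the shares were 0.428% to 0.508% and 0.326% to 0.375%, which again did not overlap. For the S-phase genes the median deviation was -0.02 to 0.17 in control libraries and -0.20 to 0.10 in KO-labelled ones, so those groups overlapped. Their share of reads overlapped as well, at 0.302% to 0.341% and 0.284% to 0.316%.

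**Figure D1:**
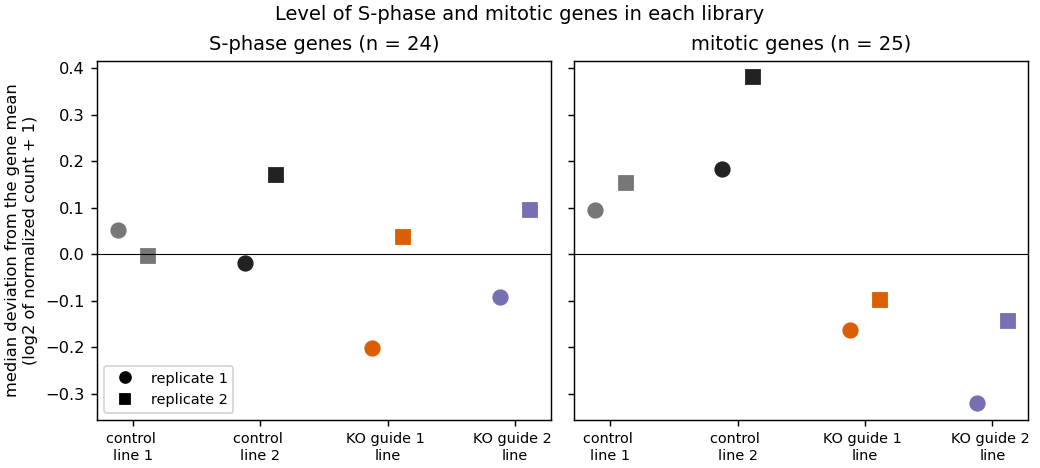
Median deviation from the gene mean (y axis, log2 of the normalized count + 1) of the 24 S-phase genes and of the 25 mitotic genes in each library, by line (x axis); circles are replicate 1 and squares replicate 2. Mitotic medians of the 4 control libraries (0.09 to 0.38) lie above those of the 4 KO-labelled libraries (-0.32 to -0.10), while S-phase medians overlap.

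Both groups carry the promoter letters by which they are usually told apart, shown here because the mitotic genes lay on the lower side together, with the S-phase genes beside them. The RefSeq table of promoters (GRCh38.p14, 1 window per gene from 250 bases before to 50 after the start farthest upstream) matched 39 of the 49 genes. AURKA, BIRC5, CCNE2, CDK2, E2F8, FOXM1, MCM4, MCM5, TPX2 and TTK had no entry. Searched on both strands were the cell cycle genes homology region, or CHR (TTTGAA or TTCGAA), an E2F site (TTTCCCGC, TTTCGCGC, TTTGCCGC or TTTGGCGC) and the CCAAT box (CCAAT), counted separately where they overlapped. A CHR was in 13 of 20 mitotic promoters (65%), in 2 of 19 S-phase promoters (10.5%) and in 16.7% of all 27305 promoters. An E2F site was in 15 of 19 S-phase promoters (78.9%), in 3 of 20 mitotic ones (15%) and in 3.34% of all. A CCAAT box was in 73.7% of S-phase, 80% of mitotic and 35.7% of all promoters. Among the 11031 promoters of genes tested, a CHR was in 11.3%, an E2F site in 5.35% and a CCAAT box in 36.4%. A match in letters is a description and not a binding site.

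Printed are the 200 bases before the start of the 2 S-phase and the 2 mitotic genes with the most negative difference between KO-labelled and control lines among those matched (RRM2, MCM2, CENPE and BUB1), and of E2F2, CENPA and CDC20, which were added after their values were seen because they show the letters in place. Sequences run 5′ to 3′ on the gene's strand in GRCh38.p14, and capitals mark the letters searched for, on either strand.
E2F2 (chr1:23531234-23531433, minus strand): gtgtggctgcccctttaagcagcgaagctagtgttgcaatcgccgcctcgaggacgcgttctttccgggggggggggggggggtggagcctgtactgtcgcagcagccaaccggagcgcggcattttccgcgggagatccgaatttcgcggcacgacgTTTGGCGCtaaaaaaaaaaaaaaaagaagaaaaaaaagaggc
RRM2 (chr2:10122368-10122567, plus strand): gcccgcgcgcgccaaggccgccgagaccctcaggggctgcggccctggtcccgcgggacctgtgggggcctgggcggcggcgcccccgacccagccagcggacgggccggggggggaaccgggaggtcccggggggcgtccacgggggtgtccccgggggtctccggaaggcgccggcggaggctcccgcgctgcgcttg
MCM2 (chr3:127598211-127598410, plus strand): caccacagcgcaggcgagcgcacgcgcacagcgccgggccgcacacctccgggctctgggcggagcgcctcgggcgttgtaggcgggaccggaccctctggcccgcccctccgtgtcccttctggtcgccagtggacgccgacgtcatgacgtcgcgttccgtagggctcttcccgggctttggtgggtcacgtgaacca
BUB1 (chr2:110678064-110678263, minus strand): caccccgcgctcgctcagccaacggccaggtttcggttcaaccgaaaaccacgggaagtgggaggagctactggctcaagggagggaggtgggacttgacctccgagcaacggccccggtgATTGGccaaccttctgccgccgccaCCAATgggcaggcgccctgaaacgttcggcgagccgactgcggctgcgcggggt
CENPA (chr2:26785856-26786055, plus strand): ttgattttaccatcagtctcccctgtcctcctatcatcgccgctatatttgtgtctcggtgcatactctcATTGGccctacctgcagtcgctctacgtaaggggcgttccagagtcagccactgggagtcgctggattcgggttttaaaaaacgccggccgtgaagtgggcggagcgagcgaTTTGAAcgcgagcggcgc
CDC20 (chr1:43358781-43358980, plus strand): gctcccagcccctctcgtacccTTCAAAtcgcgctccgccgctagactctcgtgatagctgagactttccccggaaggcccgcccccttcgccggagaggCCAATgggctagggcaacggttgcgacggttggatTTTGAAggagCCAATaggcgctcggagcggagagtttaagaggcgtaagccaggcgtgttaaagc
CENPE (chr4:103198344-103198543, minus strand): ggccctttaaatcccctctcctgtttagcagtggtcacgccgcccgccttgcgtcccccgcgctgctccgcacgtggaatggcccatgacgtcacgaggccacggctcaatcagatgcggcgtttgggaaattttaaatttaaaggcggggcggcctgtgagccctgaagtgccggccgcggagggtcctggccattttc
In the E2F2 stretch the capitals are 1 E2F site, in BUB1 2 CCAAT boxes, in CENPA 1 CCAAT box and 1 CHR, and in CDC20 2 CHRs and 2 CCAAT boxes. The stretches of RRM2, MCM2 and CENPE hold none of the letters searched for. Both E2F sites of MCM2 and the CHR of BUB1 lie after the start, outside the stretch printed. A CCAAT box of RRM2, and an E2F site and another CCAAT box of CENPA, lie in the window searched but before the stretch printed.

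Differences between arms were tested with limma on log2(normalized count + 1) over all 8 libraries, with the libraries of a line treated as correlated, and an adjusted p is Benjamini-Hochberg over all 14040 genes. With 2 lines an arm, 0 of the 24 S-phase and 0 of the 25 mitotic genes passed an adjusted p of 0.05, against 0.235% of all genes tested. At an unadjusted p under 0.05 there were 2 S-phase and 8 mitotic genes. Of the mitotic genes 24 of 25 had a lower mean in the KO-labelled lines, with a median log2 difference of -0.39, and of the S-phase genes 16 of 24, with a median of -0.10. Over all genes tested the median was 0.00 and 49.9% were lower. All 4 KO-labelled libraries lay below all 4 control libraries for 10 of 25 mitotic genes and for 1 of 24 S-phase genes, against 5.51% of all genes. They lay above for 1 S-phase gene and no mitotic gene, against 5.11%. The count of calls differed between tests. The quasi-likelihood test of edgeR on the recovered reads called 2 mitotic genes lower (TPX2 and AURKA, with 0.62% of all genes called lower). DESeq2 called 7 lower (3.07%), and limma with 1 mean per line called 8 lower (5.6%). In edgeR and DESeq2 the libraries of a line counted as independent samples of an arm. Limma with 1 mean per line took its error from the spread within lines only. None of these fits allowed for the correlation of libraries within a line, so their counts can be too high. With only the mean of each line, 2 against 2, no gene of the 14040 was called (0%).

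**Figure D2:**
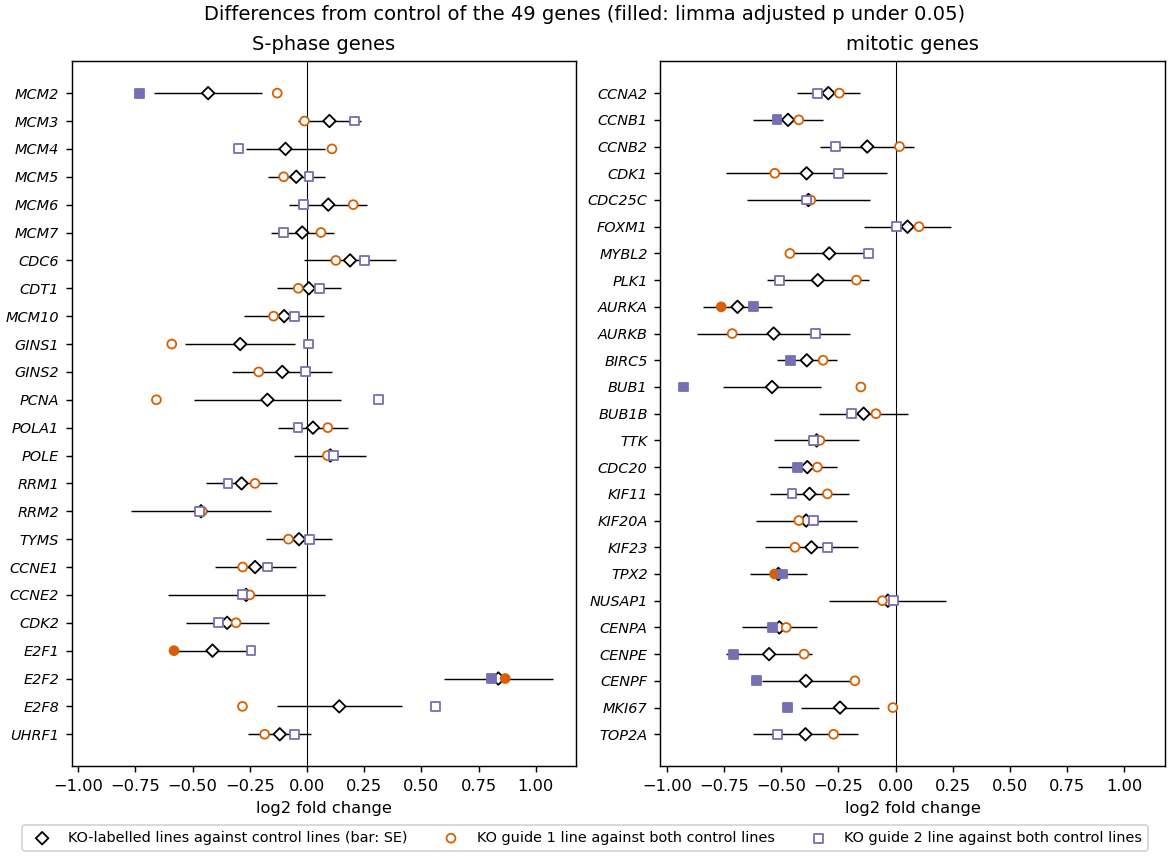
Log2 fold change (x axis) of each S-phase and mitotic gene (y axis) for the KO-labelled against the control lines (diamonds with standard error) and for the KO guide 1 line (circles) and the KO guide 2 line (squares) alone against both control lines; filled symbols passed a limma adjusted p of 0.05. Of the mitotic diamonds 24 of 25 lie left of 0, and 10 squares but 2 circles are filled there.

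The single lines were set against the 2 control lines with limma in a model with 1 mean a line. Both comparisons use the same 4 control libraries. In the KO guide 1 line 2 of 25 mitotic genes fell, TPX2 and AURKA, with 3.18% of all genes called lower, and 23 of 25 were on the lower side with a median of -0.33. Of the S-phase genes E2F1 fell and E2F2 rose, with 7.01% of all genes called in either direction. In the KO guide 2 line 10 of 25 mitotic genes fell, with 6.67% of all genes called lower, and 24 of 25 were on the lower side with a median of -0.43. They were AURKA, TPX2, BUB1, CENPE, CENPF, CENPA, CCNB1, MKI67, BIRC5 and CDC20. Of the S-phase genes MCM2 fell and E2F2 rose, with 11.2% of all genes called in either direction. The count of 10 rested on every library: it was 2 without either replicate of control line 1, 3 without replicate 2 of control line 2 or replicate 1 of the KO guide 1 line, 4 without replicate 2 of the latter, 5 without replicate 1 of the KO guide 2 line, and 6 without replicate 2 of that line or replicate 1 of control line 2. The count also fell to 7 with no filter on low values, which lost CDC20, CENPF and CENPA. It was 9 with equal totals, without BIRC5, and 9 in edgeR, without CENPF, and stayed at 10 with TMM and in DESeq2. With the replicate number as a block, 13 mitotic genes fell in the KO guide 1 line and 18 in the KO guide 2 line, where 11.4% and 14.9% of all genes were called lower. In that block fit the S-phase calls were 1 higher and 4 lower in the KO guide 1 line, and 2 higher and 5 lower in the KO guide 2 line, with 24.4% and 27.4% of all genes called in either direction.

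The arms were also compared within each replicate number. In replicate 1, 24 of 25 mitotic genes were lower in the mean of the KO-labelled libraries, with a median of -0.40, and 19 of 24 S-phase genes with a median of -0.18. In replicate 2 it was again 24 of 25 mitotic genes, with a median of -0.36, and 13 of 24 S-phase genes with a median of -0.02. Line by line the counts depended on the control line. Against control line 1, 20 and 19 of 25 mitotic genes were lower in replicates 1 and 2 of the KO guide 1 line, and 22 and 18 in those of the KO guide 2 line. Against control line 2 the counts were 25 and 23, and 24 and 25.

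Among the mitotic kinases and their partner, all 4 genes were lower in the KO-labelled lines, by 0.34 to 0.69 on the log2 scale in limma, with no call. AURKA (chromosome 20, 56369390 to 56392215), the Aurora kinase that builds the spindle poles, had normalized counts of 2466 and 2570 in control line 1, 3243 and 3429 in control line 2, 1641 and 1778 in the KO guide 1 line, and 1862 and 1907 in the KO guide 2 line. Every KO-labelled library was below every control library, although the 2 control lines also stood apart from each other. The log2 difference between arms was -0.69 ± 0.15 (SE, limma adjusted p = 0.108), and it was -0.76 ± 0.10 (adjusted p = 0.00481) for the KO guide 1 line and -0.62 ± 0.10 (adjusted p = 0.00763) for the KO guide 2 line. The first of these lost its call without either replicate of its own line, with adjusted p values of 0.0822 and 0.0534. AURKAP1, a pseudogene of AURKA with which it could share reads, was listed at 11.4 to 38.5. AURKB (chromosome 17, 8204731 to 8210575), the Aurora kinase of the chromosomal passenger complex, varied mainly with the replicate number. It was 1867 and 2958 in control line 1, 1600 and 2941 in control line 2, 1174 and 1612 in the KO guide 1 line, and 1354 and 2314 in the KO guide 2 line. Its arms overlapped and differed by -0.53 ± 0.33 (SE, limma adjusted p = 0.608). With the replicate block AURKB was called lower in both KO-labelled lines, with adjusted p values of 0.000479 and 0.0242. PLK1, the polo kinase of mitotic entry, ranged from 3040 to 4412 in control and from 2088 to 3444 in KO-labelled libraries. BIRC5, or survivin, of the passenger complex was 3525 to 3884 against 2477 to 2975, without overlap.

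**Figure D3:**
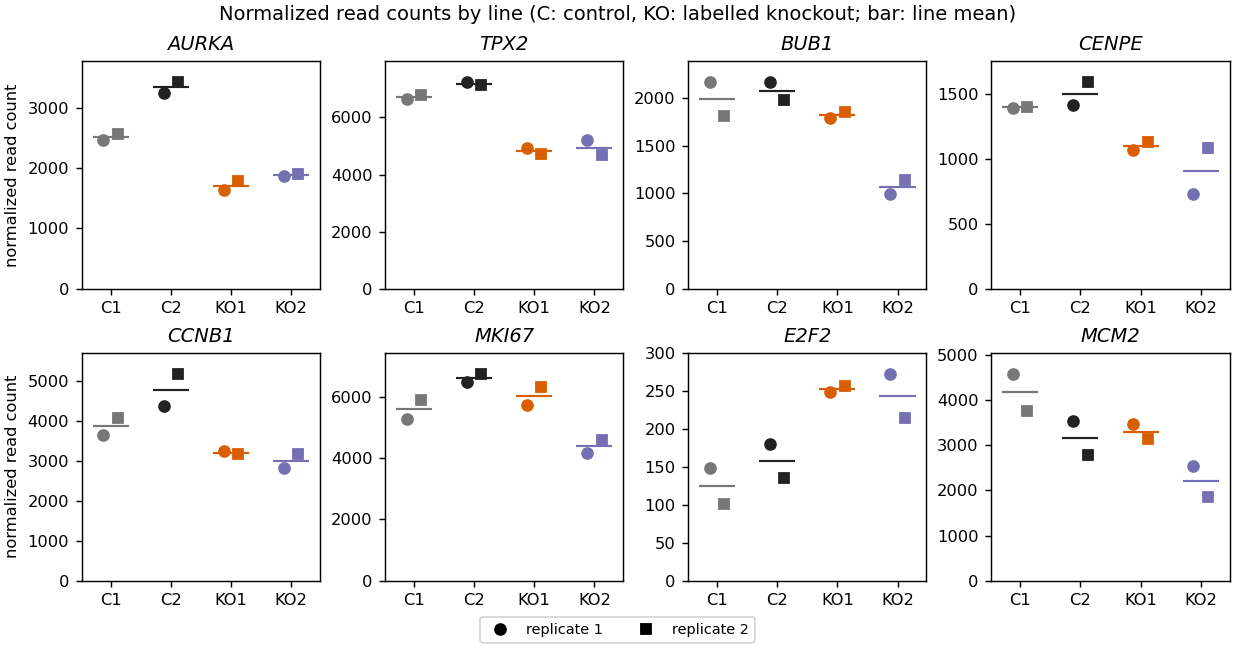
Normalized read counts (y axis, from 0) of 8 genes in control lines 1 and 2 (C1, C2) and the lines labelled KO guide 1 and 2 (KO1, KO2); circles are replicate 1, squares replicate 2 and bars line means. AURKA, TPX2, CENPE and CCNB1 lie lower in both KO-labelled lines, BUB1, MKI67 and MCM2 are lowest in the KO guide 2 line, and E2F2 lies higher in both KO-labelled lines.

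The kinesins and spindle proteins were 5 of 5 on the lower side, by 0.03 to 0.51. TPX2 (chromosome 20, 31739290 to 31801800), which activates AURKA on spindle microtubules, was 6652 and 6799 in control line 1, 7251 and 7125 in control line 2, 4927 and 4710 in the KO guide 1 line, and 5203 and 4672 in the KO guide 2 line. The arms were widely apart relative to the spread within lines, at -0.51 ± 0.12 (SE, limma adjusted p = 0.135). It fell by 0.53 in the KO guide 1 line (limma adjusted p = 0.0247) and by 0.50 in the KO guide 2 line (adjusted p = 0.0207). The former lost its call without any 1 of 5 libraries, and the latter at least without either replicate of control line 1. KIF23, a motor of the central spindle in cytokinesis, was 2119 to 3282 in control and 1752 to 2451 in KO-labelled libraries, which overlapped, with a difference of -0.37 ± 0.20 (limma adjusted p = 0.541). KIF11 and KIF20A, motors of spindle bipolarity and cytokinesis, differed by -0.38 and -0.39 with no call. NUSAP1, which bundles spindle microtubules, separated the control lines instead. Its counts were 1911 and 1818 in control line 1, 3007 and 3971 in control line 2, 2465 and 2413 in the KO guide 1 line, and 2181 and 2908 in the KO guide 2 line. Control line 2 was thus above control line 1 by 0.89 ± 0.18 (SE, limma adjusted p = 0.0445), and the arms differed by -0.03. That call was lost without any 1 control library or either replicate of the KO guide 1 line, which shares the estimate of spread.

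The 4 spindle checkpoint and anaphase genes were lower by 0.14 to 0.54 between arms. BUB1 (chromosome 2, 110637528 to 110678063), the kinetochore kinase of that checkpoint, whose promoter stretch with 2 CCAAT boxes is printed above, was 2169 and 1810 in control line 1, 2164 and 1983 in control line 2, 1792 and 1854 in the KO guide 1 line, but 997 and 1136 in the KO guide 2 line. The KO guide 2 line was thus well below the other 3 lines. It differed from the controls by -0.93 ± 0.12 (SE, limma adjusted p = 0.00314) and from the KO guide 1 line by -0.78 ± 0.14 (adjusted p = 0.0183). The latter was lost without either replicate of the KO guide 1 line, with adjusted p values of 0.102 and 0.151. BUB1B and TTK, further checkpoint kinases, differed between arms without a call and with overlapping libraries. CDC20, the activator of the anaphase-promoting complex, was 3689 to 4319 in control and 2782 to 3112 in KO-labelled libraries, without overlap.

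All 3 centromere and kinetochore genes fell in the KO guide 2 line, where 6.67% of all genes were called lower. CENPE (chromosome 4, 103105811 to 103198343), the kinesin that moves chromosomes to the spindle equator, was 1393 and 1398 in control line 1, 1409 and 1591 in control line 2, 1065 and 1125 in the KO guide 1 line, and 726 and 1079 in the KO guide 2 line. The arms did not overlap, and the lowest library was replicate 1 of the KO guide 2 line. The difference was -0.55 ± 0.19 between arms (SE, limma adjusted p = 0.281) and -0.71 ± 0.16 for the KO guide 2 line (adjusted p = 0.0246). Without that lowest library it was -0.42 with a limma adjusted p of 0.104, and leaving out either replicate of control line 1, replicate 2 of control line 2 or replicate 1 of the KO guide 1 line gave 0.0501 to 0.0746. CENPA, the histone of the centromere, was 590.2 to 791.9 in control and 419.9 to 479.2 in KO-labelled libraries, and SLC35F6 overlaps it on the same strand in the annotation. CENPF, a kinetochore protein of G2 and M, was 4557 to 5198 against 2621 to 4414. The calls of CENPA and CENPF in the KO guide 2 line were each lost in 7 of the 8 fits with 1 library left out and with no filter on low values, that of CENPA also with chromosome medians removed and that of CENPF also in edgeR.

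Among the mitotic cyclins and their kinase, 5 of 5 genes were lower between arms, by 0.12 to 0.47. CCNB1, cyclin B1, which drives entry into mitosis, was 3658 and 4090 in control line 1, 4382 and 5195 in control line 2, 3245 and 3166 in the KO guide 1 line, and 2834 and 3177 in the KO guide 2 line. The arms did not overlap. CCNB1 differed by -0.47 ± 0.15 (SE, limma adjusted p = 0.267), and it fell by 0.52 in the KO guide 2 line (adjusted p = 0.0278). That call of CCNB1 was lost at least without either replicate of control line 1. CDK1, its kinase, varied widely between replicates of a line, with 2116 and 2575, 2100 and 4151, 1548 and 2142, and 1563 and 3118 in the same order of lines. Its arms overlapped, with a difference of -0.39 ± 0.35 (limma adjusted p = 0.758).

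Of the proliferation markers, MKI67, the antigen Ki-67 of cycling cells, was 5260 and 5901 in control line 1, 6471 and 6747 in control line 2, 5739 and 6307 in the KO guide 1 line, and 4158 and 4591 in the KO guide 2 line. The KO guide 1 line lay within the controls and the KO guide 2 line below them. The difference from the controls was -0.01 ± 0.12 (SE) for the former and -0.47 ± 0.12 (limma adjusted p = 0.0315) for the latter, a call that was lost when any 1 of the 8 libraries was left out. The direct difference between the 2 lines was -0.46 (limma adjusted p = 0.0718), and with the replicate block it passed (adjusted p = 0.00709). TOP2A, the topoisomerase that untangles sister chromatids, was 9553 to 13640 in control and 5905 to 9495 in KO-labelled libraries, with a difference of -0.39 ± 0.23 (limma adjusted p = 0.569). Between the 2 KO-labelled lines TOP2A differed by -0.246, with an adjusted p of 0.274 under the replicate block in limma. Of the transcription factors of the mitotic wave, FOXM1 was 1271 to 2001 in control and 1365 to 1877 in KO-labelled libraries, a difference of 0.05, and MYBL2 was 3615 to 4842 against 2631 to 4042.

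S-phase genes showed no common direction. The 6 genes of the replicative helicase differed between arms by -0.43 to 0.10, with a median of -0.03. MCM2 (chromosome 3, 127598411 to 127622436), one of its subunits, was 4593 and 3761 in control line 1, 3540 and 2793 in control line 2, 3477 and 3139 in the KO guide 1 line, and 2539 and 1861 in the KO guide 2 line. Only the KO guide 2 line lay below all others, with a difference of -0.73 ± 0.17 from the controls (SE, limma adjusted p = 0.0246), and leaving out replicate 1 of either control line or replicate 2 of the KO guide 2 line ended this call. TPRA1 overlaps MCM2 on the other strand in the annotation, and use of strand in counting is not given in the sources used here. The 5 licensing and helicase activation genes (CDC6, CDT1, MCM10, GINS1 and GINS2) differed by -0.29 to 0.19. Of the polymerase genes and the clamp, PCNA, the sliding clamp, was 4114 and 4048, 3634 and 5537, 2515 and 2923, and 4056 and 6951 in control line 1, control line 2, the KO guide 1 line and the KO guide 2 line. The KO guide 1 line lay below every control library and the KO guide 2 line overlapped them, with the latter 0.97 ± 0.27 above the former (SE, limma adjusted p = 0.0642). With the replicate block this difference passed (adjusted p = 0.00139), and PCNA was called lower in the KO guide 1 line than in the controls (adjusted p = 0.00547).

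Genes of deoxynucleotide synthesis and of cyclin E were on the lower side without a call. RRM2, the small subunit of ribonucleotide reductase, was 4588 and 6044, 5466 and 8700, 3420 and 5629, and 3436 and 5519 in the same order of lines. Arms overlapped, with a difference of -0.46 ± 0.31 (SE, limma adjusted p = 0.627). With the replicate block RRM2 was called lower in both KO-labelled lines (adjusted p = 0.00564 and 0.00404). RRM1 and TYMS differed by -0.29 and -0.04. CCNE1 and CCNE2, the cyclins E that open S phase with CDK2, differed by -0.23 ± 0.18 and -0.27 ± 0.34 (limma adjusted p = 0.698 and 0.849). CDK2 differed by -0.35.

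E2F factors went different ways. E2F2 (chromosome 1, 23505212 to 23531233), an activator whose printed stretch carries an E2F site, was the one S-phase gene higher in all 4 KO-labelled libraries. Its counts were 148.9 and 100.9 in control line 1, 179.8 and 134.8 in control line 2, 248.2 and 257.3 in the KO guide 1 line, and 273 and 214.9 in the KO guide 2 line. E2F2 differed by 0.84 ± 0.24 between arms (SE, limma adjusted p = 0.204). It rose by 0.87 in the KO guide 1 line (adjusted p = 0.0454) and by 0.81 in the KO guide 2 line (adjusted p = 0.0432). Both calls were near the threshold: with no filter on low values they were lost (limma adjusted p = 0.063 and 0.0601), and they were lost without any 1 of 5 or of 6 of the libraries. E2F1, the best known activator, was 1397 and 1238, 1259 and 1367, 781.3 and 986.5, and 1106 and 1111 in the same order of lines. All KO-labelled libraries were below the controls, with -0.41 ± 0.16 between arms (limma adjusted p = 0.352) and a fall by 0.58 in the KO guide 1 line (adjusted p = 0.0354). That call was lost without any 1 of 5 libraries. E2F8, a repressor of E2F targets, was 181.1 and 157, 224.6 and 232.3, 143.3 and 181.5, and 263.7 and 319.9. It was higher in the KO guide 2 than in the KO guide 1 line by 0.85 ± 0.20 (limma adjusted p = 0.0387), and leaving out any library but replicate 1 of the KO guide 2 line ended this call. UHRF1, which carries DNA methylation through replication, differed between arms by -0.12.

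Median RNA levels over the tested genes of some chromosomes differed between these lines, and the calls were set against that. In the KO guide 1 line the median log2 difference of the 392 genes tested on chromosome 20 was -0.39. Chromosome 20 holds GINS1, PCNA, E2F1, MYBL2, AURKA and TPX2, and all 6 were lower in that line. For the KO guide 2 line the median was 0.04 on chromosome 20, -0.48 for the 781 genes of chromosome 3, which holds MCM2, and -0.26 for the 963 genes of chromosome 2, which holds BUB1, CENPA, RRM2 and MCM6. The control lines differed in this way too. Control line 2 against control line 1 had medians of -0.435 on chromosome 3, -0.375 on chromosome 16 and 0.205 on chromosome 15, which holds NUSAP1. MCM2 differed between the control lines by -0.403. With the median of each chromosome subtracted in each library, a fit added after the data were seen, no S-phase or mitotic gene was called in the KO guide 1 line, where 4.76% of all genes were called. AURKA then differed by -0.36 (limma adjusted p = 0.0763), TPX2 by -0.13 (adjusted p = 0.514) and E2F1 by -0.18 (adjusted p = 0.452). In the KO guide 2 line 10 mitotic genes were then called lower, with 3.82% of all genes, PLK1 newly among them and CENPA not. PLK1 lies on chromosome 16, whose median in that line was 0.25, and subtracting it took PLK1 further down from -0.509. After the subtraction AURKA differed in the KO guide 2 line by -0.65 (limma adjusted p = 0.00768), BUB1 by -0.68 (adjusted p = 0.0134) and CENPE by -0.75 (adjusted p = 0.0232), while MCM2 differed by -0.23 (adjusted p = 0.48). E2F2 was not called in either line after this subtraction (adjusted p = 0.0556 and 0.0638), and of all genes 7.26% were called in the KO guide 2 line. Nor was any S-phase or mitotic gene called between the control lines (1.19% of all) or between the KO-labelled lines (4.04%). Mitotic genes off chromosome 20 were still lower in the KO guide 1 line for 20 of 22, with a median of -0.31.

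**Figure D4:**
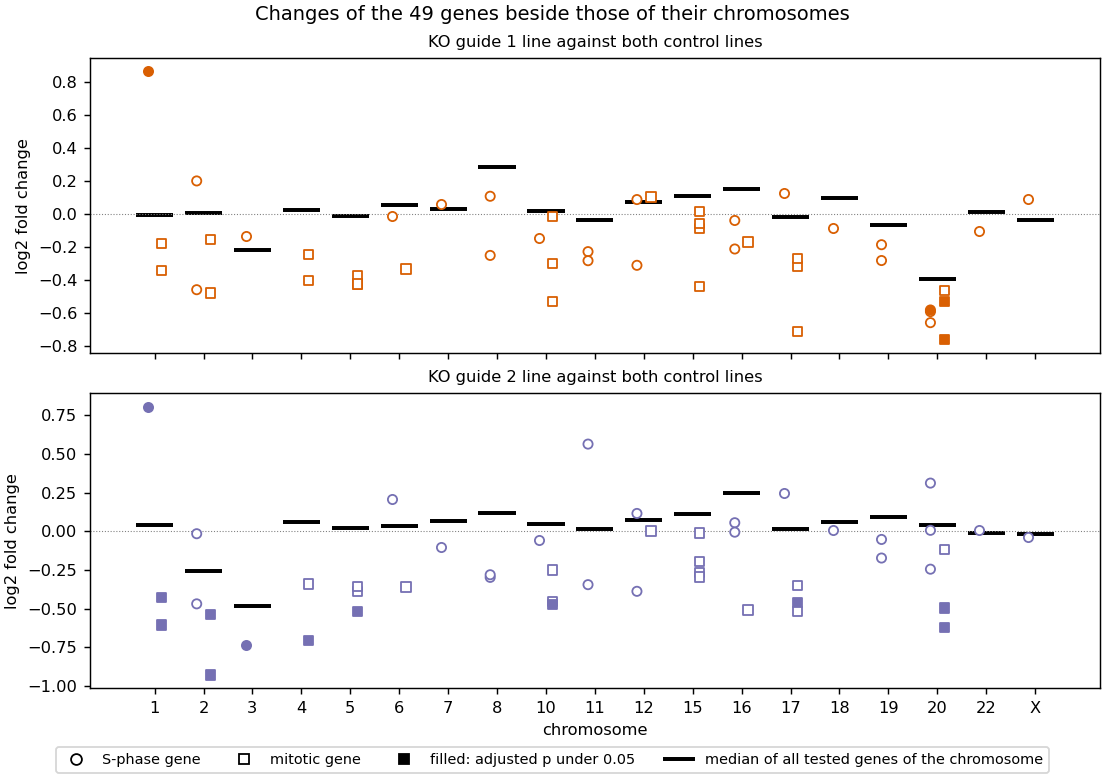
Log2 fold change (y axis) of the S-phase (circles) and mitotic (squares) genes by chromosome (x axis) in the KO guide 1 line (top) and the KO guide 2 line (bottom), both against all control libraries; filled symbols passed a limma adjusted p of 0.05 and bars are the median of all tested genes of the chromosome. In the KO guide 1 line all 6 genes on chromosome 20 lie below 0 beside a median of -0.39, and in the KO guide 2 line 24 of 25 mitotic genes lie below 0.

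Between the 2 control lines, 1 mitotic gene, NUSAP1, and no S-phase gene passed limma's test, with 2.13% of all genes called and 1.05% called higher. At an unadjusted p under 0.05 there were 4 mitotic genes and 1 S-phase gene. Control line 2 was on the higher side for 20 of 25 mitotic genes, with a median of 0.18. DESeq2 called 2 mitotic and 0 S-phase genes, and the replicate block 5 mitotic and 2 S-phase genes, with 12.5% of all. Between the 2 KO-labelled lines E2F8 and BUB1 were called, with 6.94% of all genes, and 17 of 25 mitotic genes were lower in the KO guide 2 line with a median of -0.095. With the replicate block 5 S-phase and 4 mitotic genes were called there, with 24.5% of all.

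S-phase and mitotic genes also differed by replicate number, 17 of 24 and 18 of 25 of them being higher in replicate 2, with medians of 0.12 and 0.13. Control line 1 went against this for the S-phase genes, with 18 of 24 lower in replicate 2 and a median of -0.119, while the medians in the other 3 lines were 0.162 to 0.263. With line as a term, 5 S-phase genes rose (GINS2, RRM2, PCNA, GINS1 and CCNE2) and MCM2 fell, and 4 mitotic genes rose (CDK1, KIF11, KIF23 and AURKB) while FOXM1 and KIF20A fell. Of all genes 8.97% were called higher and 8.62% lower. AURKB was higher in replicate 2 in all 4 lines, by 0.46 to 0.88, with 0.69 ± 0.08 over the lines (SE, limma adjusted p = 0.000684). CDK1 was higher in 4 of 4 lines by 0.68 ± 0.11 (adjusted p = 0.00341 in limma) and RRM2 in 4 of 4 by 0.62 ± 0.08 (limma adjusted p = 0.000893). KIF23 was higher in 4 of 4 by 0.36 ± 0.07 (limma adjusted p = 0.00757). PCNA was higher in 3 of 4 lines by 0.39 ± 0.12 (limma adjusted p = 0.0346), and CCNE2 in 3 of 4 by 0.53 ± 0.16 (adjusted p = 0.0434 in limma). Leaving out either replicate of control line 2, which takes that line out of the comparison, left 1 S-phase and 2 mitotic genes called, and leaving out either replicate of the KO guide 2 line left 2 S-phase genes. The labels do not say what the replicate number stands for.

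**Figure D5:**
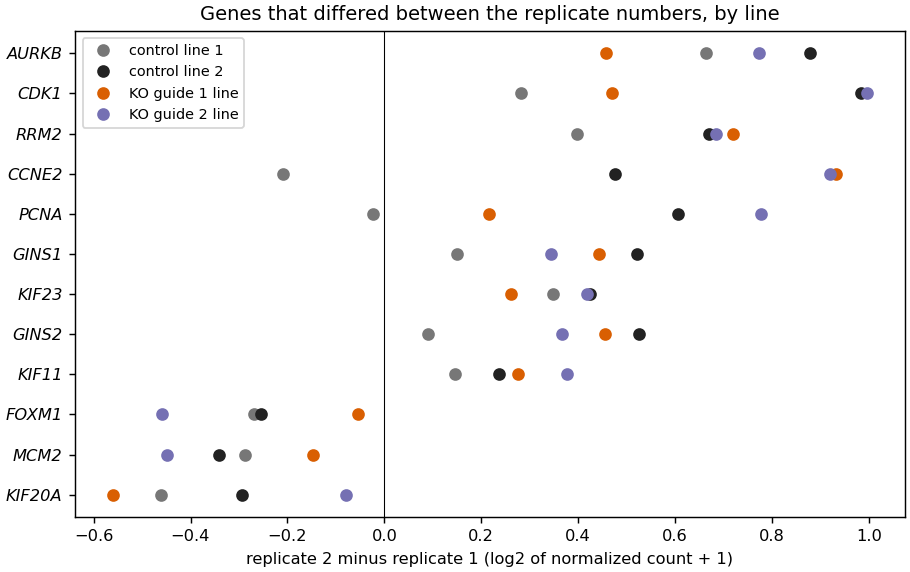
Difference between replicate 2 and replicate 1 (x axis, log2 of the normalized count + 1) in each line for the 12 S-phase and mitotic genes (y axis) called in that comparison. AURKB, CDK1, RRM2 and KIF23 lie right of 0 in 4 of 4 lines, and FOXM1, MCM2 and KIF20A lie left of 0 in all of them.

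Lists of further genes of the same processes were examined in the same fits. Of 69 further mitotic genes 68 were on the lower side between arms, with a median of -0.355 (limma, 0 called, 19 at an unadjusted p under 0.05, 20 with all KO-labelled libraries below all controls, where 5.51% of all genes were). In the KO guide 1 line 4 of them fell (KIF15, CENPM, CDC25B and FAM83D) and none rose, with 3.18% of all genes called lower, and in the KO guide 2 line 16 fell and none rose, with 6.67% called lower. The latter included the condensin subunits SMC2 (-0.79), SMC4 (-0.855) and NCAPH (-0.74), the cytokinesis genes ECT2 (-0.89), RACGAP1 (-0.47) and CIT (-0.46), and INCENP (-0.585) of the passenger complex, named here after their values were seen. The condensin subunits NCAPD2 (-0.24), NCAPG (-0.50) and NCAPG2 (-0.28) were not called. Of those 16 genes 3 lie on chromosome 2 and 3 on chromosome 3. With chromosome medians removed 12 were called lower in the KO guide 2 line, 10 of them among the 16, and 1 in the KO guide 1 line, KIF15, a kinesin of the spindle. SMC4, NCAPH and ECT2 were not among the 12. Of 50 further replication genes 32 were on the lower side with a median of -0.14 (0 called in limma, 2 at an unadjusted p under 0.05). CHAF1B, of the histone chaperone CAF-1, fell in the KO guide 1 line, and RFC4 and POLE3, of the clamp loader and a polymerase, fell in the KO guide 2 line. These were 1 and 2 of 50 genes, beside 3.18% and 6.67% of all genes called lower, so the counts lay near or below that background. None of these 3 was called with chromosome medians removed. In replicate 2, 17 of these 50 and 26 of the 69 mitotic genes rose, while none and 1 fell, against 8.97% of all genes called higher and 8.62% lower.

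Few of the upstream regulators were called between arms or in a KO-labelled line against the controls. Of 6 CDK inhibitors that were tested out of 8, none was called between arms in limma (0 at an unadjusted p under 0.05). CDKN2C, or p18, rose in the KO guide 2 line by 0.49 (limma adjusted p = 0.0351). It was also 0.74 above the KO guide 1 line (limma adjusted p = 0.0206), where 6.94% of all genes were called. CDKN1A, the inhibitor p21, was 3052 and 2069 in control line 1, 3477 and 2707 in control line 2, 3495 and 3517 in the KO guide 1 line, and 5097 and 2986 in the KO guide 2 line. Its arms overlapped, with a difference of 0.41 ± 0.26 (SE, limma adjusted p = 0.601), and it fell by 0.42 from replicate 1 to replicate 2 over the lines (adjusted p = 0.0216). CDKN1B, p27, differed by 0.24 ± 0.21 between arms and CCND1, cyclin D1, by 0.20 ± 0.30 (limma adjusted p = 0.748 and 0.873). From control line 1 to control line 2, CDKN1B differed by 0.70 and CCND1 by -0.95, not called (limma adjusted p = 0.0555 and 0.062). RB1, the retinoblastoma gene, was at 1105 to 1420 in all libraries, with a difference of -0.03 ± 0.15 (limma adjusted p = 0.968). CDKN2A, which encodes p16, was at 0 in 7 libraries and at 2.41 in replicate 2 of the KO guide 2 line. Of 15 RB, E2F and DREAM genes, E2F6 and TFDP2 fell in the KO guide 2 line and none was called between arms (1 at an unadjusted p under 0.05). Of 16 genes of the anaphase-promoting complex ANAPC2 fell there, and of 6 checkpoint kinases ATR, on chromosome 3, fell by 0.97 (limma adjusted p = 0.00644). Of all genes 6.67% were called lower and 11.2% in either direction in that line, so these few calls are no result about the lists. Between the control lines E2F4 (-0.647, limma adjusted p = 0.0445) and ANAPC13 (-0.78, adjusted p = 0.0295) were called, both lower in control line 2. Of all genes 2.13% were called there. Chromosome medians were lower in control line 2 as well, at -0.435 for chromosome 3 and -0.375 for chromosome 16. The part of such shifts in these calls was not tested. With chromosome medians removed, none of CDKN2C, E2F6, TFDP2, ANAPC2 and ATR was called in the KO guide 2 line. By replicate number, RBL1, E2F7, ANAPC10 and FBXO5 rose in replicate 2, and RBL2 and ANAPC1 fell, besides CDKN1A. Of all genes 8.97% were called higher and 8.62% lower there.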

How the data were processed

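The deposited table holds normalized read counts of 28395 genes in 8 libraries, a signal that the authors made by dividing whole reads by 1 size factor per library: within a tolerance of 0.001 read, 100% of nonzero values came out as whole reads, which were recovered. Per the submitters' processing notes, fastp 0.23.2, HISAT2 2.2.1, featureCounts 2.0.1, DESeq2 2.11.40.8 and GRCh38 were used. The annotation and the use of strand in counting are not given in the sources used here. In GENCODE annotation 18 of the 49 genes are overlapped by a gene on the other strand and 10 by one on the same strand. Entrez identifiers were matched to RefSeq GRCh38.p14 symbols and coordinates (27745 of 28395). Reads carry no molecular identifiers, so depth speaks for counting error only.

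Genes reaching a normalized count of 10 in 2 or more libraries (14040) were tested with limma 3.58.1 (R 4.3.3) on log2(value + 1) with a mean-variance trend. Because of the added 1, fold changes understate those of low genes. Arms were compared over 8 libraries with duplicateCorrelation by line (0.33), single lines with 1 mean per line over all 8 libraries, and replicates with line as a term. Calls are an adjusted p under 0.05 over all genes. Scripts were tested on simulated data. Replicate numbers come from the sample titles, and the replicate differences of lines correlated across genes at 0.285 to 0.501 in all 6 pairs of lines. The numbers were therefore used to pair libraries in the replicate block and in comparisons within a replicate number. The main fits of arms and of single lines held no replicate term. Alternatives were the pseudocount (0.1, 10), the filter (none, 50), scaling (equal totals, TMM), edgeR 4.0.16, DESeq2 1.42.0, a replicate block, line means, each library left out and, added after seeing the data, chromosome medians removed.

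The genes and lists were chosen with earlier results of these data known. Genes described in full were, in each group, the 4 largest differences between arms, up to the 3 largest calls of each other comparison, and MCM2, PCNA, CCNE1, CCNE2, CDK1, CCNB1, MKI67 and TOP2A, with CDKN1A, CDKN1B, CCND1 and RB1 of the regulators. Other names were added after their values were seen. NDUFA4L2, a further kidney cancer marker, was not analysed here. A further marker of other cell types is not reported here.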

Additional observations from a re-analysis of the deposited data

Results flagged for a closer look

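Within the 4 libraries of an arm, a library far from the other 3 (by Dixon's ratio of gap to range at the 95% level) was found in 6 of 98 groups examined, where chance gives about 1 in 20. Of these 6, 3 were in replicate 2 of control line 2: TOP2A at 13640 against 9553 to 10080 in the other control libraries, CENPA at 791.9 against 590.2 to 613.3, and CENPE at 1591 against 1393 to 1409. CDC20 was 4319 in replicate 2 of control line 1 against 3689 to 3739. In the KO-labelled arm PLK1 was 2088 in replicate 2 of the KO guide 2 line against 3261 to 3444, and CENPE was 726 in replicate 1 of that line against 1065 to 1125.

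The 2 KO-labelled lines differed in 2 of the genes by limma's direct test, E2F8 with 0.845 higher and BUB1 with -0.776 in the KO guide 2 line (adjusted p = 0.0387 and 0.0183, log2 scale).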

How the results depend on the processing

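The mitotic median between arms stayed negative under every setting run, from -0.445 to -0.29 when 1 library was left out, and the S-phase median from -0.123 to -0.033. Between arms edgeR called 2 mitotic genes, DESeq2 7 mitotic and 1 S-phase, and limma with 1 mean per line 8 and 2. These fits did not allow for the correlation of libraries within a line. With the replicate block the calls (S-phase, then mitotic) were 5 and 13 in the first KO-labelled line, 7 and 18 in the second, 2 and 5 between control lines, and 5 and 4 between KO-labelled lines; it changed no call between arms. With chromosome medians removed they were 0 and 0 for KO guide 1, 0 S-phase for KO guide 2, 0 mitotic between control lines, and 0 and 0 between KO-labelled lines. With no filter, S-phase calls were 1 in each KO-labelled line and 0 between them, and mitotic calls between control lines 0. With equal totals, S-phase calls were 3 between replicates, 0 for KO guide 1 and 1 in the other line, and mitotic calls between KO-labelled lines 2. DESeq2 gave 4 S-phase calls for KO guide 1, 2 mitotic between control lines, and 2 and 2 between KO-labelled lines. Leaving out 1 library gave, for KO guide 1, 0 to 3 S-phase and 0 to 3 mitotic calls. For KO guide 2 it gave 0 to 1 and 2 to 6, with medians of -0.172 to 0.052 and -0.545 to -0.28. Between control lines it gave 0 to 1 mitotic calls and medians of -0.046 to 0.158 and 0.09 to 0.276. Between KO-labelled lines it gave 0 to 3 and 0 to 2, with medians of -0.063 to 0.218 and -0.161 to 0.018, and between replicates 1 to 7 and 2 to 5, with medians of 0.092 to 0.194 and 0.092 to 0.164. Of the differences between arms, 4 near 0 changed sign: E2F8 was -0.001 without replicate 2 of KO guide 2 (range -0.001 to 0.308 over the libraries left out), NUSAP1 0.132 without replicate 2 of control line 2 and 0.05 without replicate 1 of KO guide 2 (range -0.145 to 0.132), and PCNA 0.011 with chromosome medians removed. The causes were not tested. Where an arm was left with 1 library of a line, that library was assumed to vary like the others. With equal totals the median of all genes between replicates was -0.073, against 0.002 as reported.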
